A study of Mus musculus with 9 samples.

Results

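The genes described here encode the secreted Wnt ligands, their receptors and the secreted proteins that modulate them, together with the nuclear factor Lef1 and the pathway target Axin2. They were chosen by name alone, as every gene with a probe set of its own called Wnt, Fzd, Sfrp, Frzb, Dkk, Rspo, Lrp5 or Lrp6, plus Axin2, Lef1 and Tcf7, with the probe set of highest mean taken per gene. The choice gave 46 of 19933 genes: 19 Wnt ligands, 10 Frizzled receptors, 2 coreceptors, 5 Frizzled-related proteins, 4 Dickkopf proteins, 4 R-spondins, and Lef1 with Axin2. Tcf7 was not analysed here. RNA came from mouse yolk sacs at embryonic day 9.5 of a mixed SV 129/C57BL/6 background, in 3 groups of 3 arrays: knockouts that lack both copies of Rnh1 (Rnh1-/-, KO), heterozygotes with 1 copy lost (Rnh1+/-, HET) and wild type (Rnh1+/+, WT). The Rnh1 product is a leucine-rich repeat protein that inhibits RNase A and its relatives in the cytosol. No embryo was treated, and yolk sacs were collected free of maternal tissue, per the labels' protocols. The labels state neither how the Rnh1 allele was made, nor the sex of the embryos, nor whether samples came from separate animals, so the spread behind each p-value is that of these samples, which may be technical.

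Wnt proteins are secreted, lipid-modified ligands that bind Frizzled receptors, and in the canonical branch also Lrp5 or Lrp6. Binding stops the breakdown of beta-catenin, which then enters the nucleus and activates genes with Tcf7, Lef1 and related factors, Axin2 among them. Frizzled-related proteins bind Wnt ligands outside the cell, Dickkopf proteins such as Dkk1 act on Lrp5 and Lrp6, and R-spondins keep Frizzled receptors at the cell surface. The yolk sac has an outer endoderm and an inner mesoderm that forms blood and vessels, and Wnt signals take part in forming mesoderm in the early embryo.

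In KO yolk sacs 8 of 40 Wnt genes tested rose relative to WT (20.0%) and 0 fell, where 8.27% of all genes tested rose and 15.2% fell. With 1 array left out the 8 became between 3 and 12. They were the Frizzled receptors Fzd1, Fzd2, Fzd3, Fzd7 and Fzd8, the Frizzled-related proteins Sfrp2 and Sfrp5, and Lef1. The rises ran from 1.15-fold (Fzd1) to 2.39-fold (Sfrp2). No Wnt ligand, coreceptor, Dickkopf or R-spondin gene passed in this comparison. In HET yolk sacs none of these genes passed, as was so for all 13207 genes tested (0.0%), Rnh1 itself among them.

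All 9 arrays carried strong signal for defining genes of the yolk sac, with the alpha-fetoprotein gene Afp of its endoderm between 12.60 and 13.09 and the embryonic globin Hbb-y of its primitive red cells between 13.10 and 13.41 (log2 signal, where 1 unit is a doubling). Rnh1 read 6.28 to 6.87 in KO, 9.75 to 9.77 in HET and 10.32 to 10.42 in WT, so the groups did not overlap and lay in the order of the labels. The Y-linked gene Eif2s3y read 4.41 to 7.62 in KO, 7.87 to 8.68 in HET and 4.34 to 8.81 in WT, and Xist of the inactive X chromosome 11.05 to 11.67 in KO, 5.15 to 10.56 in HET and 5.69 to 10.995 in WT, so neither was balanced between genotypes, and both read high on KO 1, KO 2, HET 2 and WT 2. Of the 46 Wnt genes, 40 were tested and 6 were left out as dim, because they exceeded the 40th percentile of their array on fewer than 3 of 9 arrays. That level lay between 6.35 and 6.57, and 34 of the 46 exceeded it on all 9 arrays, 7 on some and 5 on none.

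By limma at a Benjamini-Hochberg adjusted p under 0.05, 8 of 40 Wnt genes tested were higher in KO than in WT (20.0%), and 0 were lower, where 12 were higher and 0 lower at an unadjusted p under 0.05. Over all 13207 genes tested, 23.5% were called in this comparison, 8.27% higher and 15.2% lower. The median log2 difference was 0.23 over the 40 Wnt genes and -0.00 over all genes, and 33 of the 40 lay above 0. All 3 KO arrays lay above all 3 WT arrays for 10 of the 40 and below them for 0, against 15.8% and 24.7% of all genes. The calls varied in how far they rested on single arrays: 3 rose without WT 1 and 4 without WT 2, against 12 without KO 1, and 5 rose when each array was centred on its median, a scaling that put the median of all genes at -0.07 and that of the Wnt genes at 0.16.

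**Figure D1:**
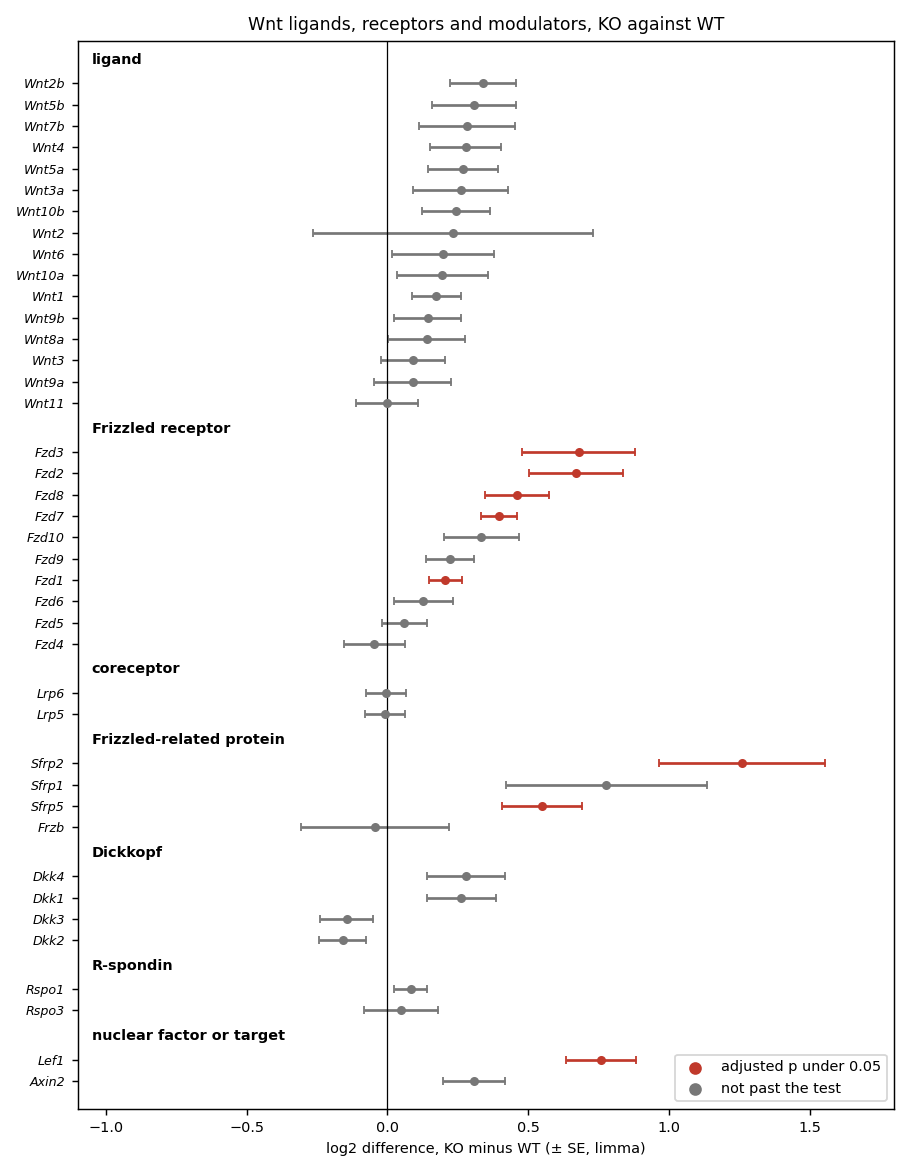
Log2 difference of KO minus WT for the 40 Wnt genes tested, in groups by role; points are limma estimates, bars ± 1 SE, and red marks an adjusted p under 0.05. The 8 red points all lie right of 0, from 0.21 for Fzd1 to 1.26 for Sfrp2, and 5 of them are Frizzled receptors.

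Lef1 encodes a DNA-binding partner of beta-catenin. It read 7.43, 7.29 and 7.77 on the KO arrays, 6.85, 6.85 and 6.91 on the HET arrays and 6.76, 6.57 and 6.88 on the WT arrays. The 3 KO arrays stood clear of the other 6. The rise over WT was 0.76 ± 0.12 (log2, SE, n = 3 each, 1.69-fold, limma adjusted p = 0.00398), with a 95% interval from 0.48 to 1.04. The rise over HET was 0.63 ± 0.12 (adjusted p = 0.00847). Both calls held under all 20 alternatives run, with adjusted p from 0.000453 to 0.0186 against WT.

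Axin2 is a negative regulator that the pathway itself switches on. It read 7.59, 7.62 and 7.86 in KO, 7.46, 7.26 and 7.55 in HET and 7.35, 7.24 and 7.56 in WT. The KO arrays lay above all others, but the gap from KO 1 to HET 3 and WT 3 was small. The difference was 0.31 ± 0.11 against WT (95% interval 0.06 to 0.56), which did not pass after adjustment (limma adjusted p = 0.0764), and 0.27 ± 0.11 against HET (adjusted p = 0.123). Axin2 passed against WT without WT 3 (adjusted p = 0.0471) and with array weights (0.014).

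**Figure D2:**
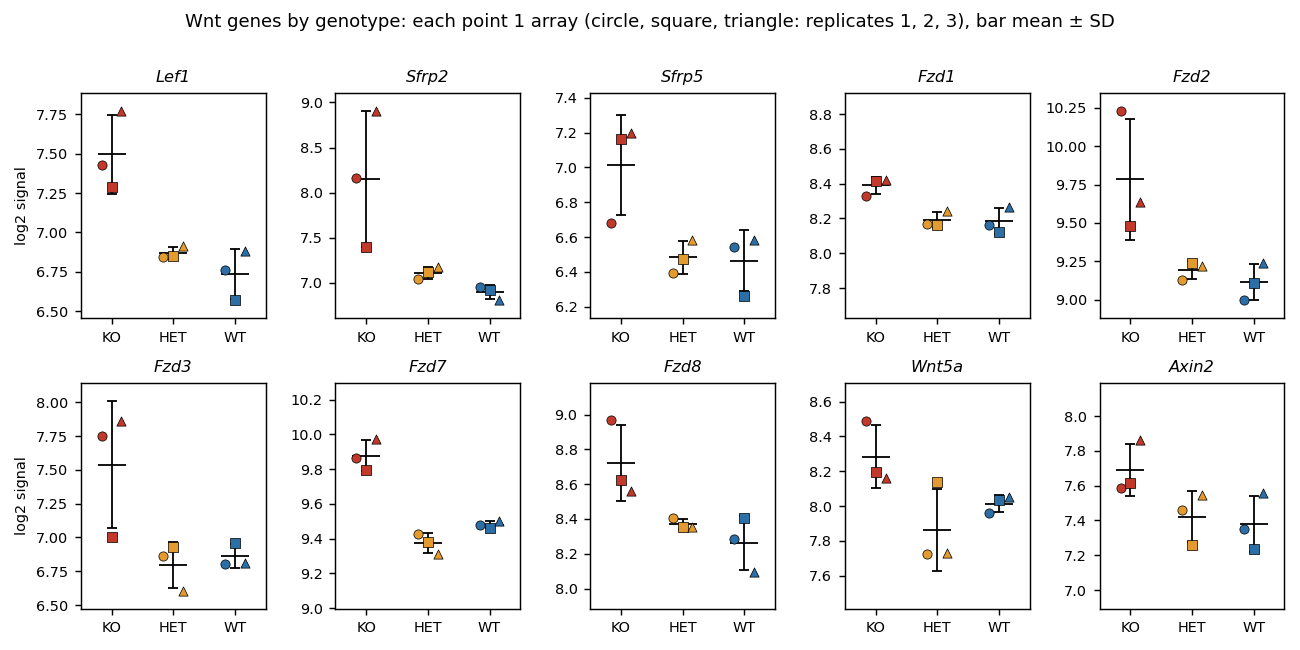
Log2 signal of the 9 Wnt genes that passed in KO against WT or in KO against HET, and of Axin2; each point is 1 array, the horizontal bar the mean and the whiskers ± SD of 3 arrays. KO arrays lie above the WT arrays in all 10 panels, by the widest margin in Sfrp2, whose KO arrays span 7.40 to 8.90.

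Of the 10 Frizzled receptors, which are seven-pass membrane proteins, 5 rose in KO against WT, 0 fell and 5 did not pass, and 9 of 10 log2 differences were above 0 (median 0.28, or 0.21 with arrays centred on their medians, where 8 of 10 were above 0). Fzd7, a receptor used in early mesoderm and endoderm, read 9.86, 9.80 and 9.98 in KO, 9.43, 9.38 and 9.31 in HET and 9.48, 9.46 and 9.50 in WT. Its KO arrays lay close together and stood well above both other groups, and its HET arrays lay just below the WT arrays. The rise was 0.40 ± 0.06 over WT (1.32-fold, limma adjusted p = 0.00356) and 0.50 ± 0.06 over HET (adjusted p = 0.00148). Both calls held under all 20 alternatives run.

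Fzd2 read 10.23, 9.48 and 9.64 in KO, 9.13, 9.24 and 9.22 in HET and 9.0, 9.11 and 9.24 in WT. KO 1 was highest, and all KO arrays lay above the rest. The rise over WT was 0.67 ± 0.17 (1.59-fold, limma adjusted p = 0.0201), lost without WT 1 (adjusted p = 0.0728) or WT 2 (0.0582). Fzd8 read 8.97, 8.63 and 8.56 in KO, 8.40, 8.35 and 8.35 in HET and 8.28, 8.40 and 8.09 in WT, again with KO 1 highest. Its rise over WT was 0.46 ± 0.11 (1.38-fold, adjusted p = 0.0196), lost without WT 1 (0.0573) or WT 3 (0.06) and with arrays centred on their medians (0.0526). Its difference from HET was 0.35 ± 0.11, short of the threshold (adjusted p = 0.0559); without KO 3 this difference passed (0.0426).

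Fzd3, best known as a receptor of planar polarity and axon guidance, read 7.75, 7.0 and 7.86 in KO, 6.86, 6.93 and 6.60 in HET and 6.81, 6.96 and 6.81 in WT. KO 1 and KO 3 were high, while KO 2 lay only just above the highest WT array. The difference was 0.68 ± 0.20 (1.60-fold, limma adjusted p = 0.0383), and the call held under 5 of 19 alternatives run; it was lost without WT 1 (0.106), WT 2 (0.0734), WT 3 (0.0888), HET 1 (0.0592), HET 2 (0.0556), KO 1 (0.0838) or KO 3 (0.111). Fzd1 read 8.33, 8.42 and 8.42 in KO, 8.17, 8.16 and 8.24 in HET and 8.16, 8.12 and 8.27 in WT, a small and even step. Its difference was 0.21 ± 0.06 (1.15-fold, adjusted p = 0.0374), and the call held under 7 of 20 alternatives; it was lost without WT 1 (0.122), WT 2 (0.122), HET 1 (0.0589), HET 2 (0.0568), KO 2 (0.0957) or KO 3 (0.0894).

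Among the Frizzled receptors that did not pass, Fzd9 had the smallest unadjusted p, with 7.20, 7.38 and 7.10 in KO, 7.01, 7.03 and 7.12 in HET and 6.90, 7.02 and 7.10 in WT. KO 3 and WT 3 read the same, and HET 3 lay above KO 3 (difference 0.22 ± 0.09, limma adjusted p = 0.0905). Fzd4, Fzd5, Fzd6 and Fzd10 had differences from -0.05 to 0.33 (adjusted p from 0.103 to 0.775). For Fzd4, the receptor of endothelial cells, the 95% interval ran from -0.29 to 0.20.

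The coreceptors Lrp5 and Lrp6, single-pass receptors of the canonical branch, gave some of the closest readings of the set. Lrp5 read 11.05, 11.12 and 10.98 in KO, 11.20, 11.07 and 11.02 in HET and 11.07, 11.13 and 10.98 in WT, with the groups fully interleaved. The difference of KO from WT was -0.01 ± 0.07 for Lrp5 (95% interval -0.17 to 0.15, limma adjusted p = 0.944) and -0.01 ± 0.07 for Lrp6 (-0.17 to 0.16, adjusted p = 0.965). Quantile normalization put both above 0, with a median of 0.06.

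Sfrp2, a secreted protein with a Frizzled-like domain, read 8.17, 7.40 and 8.90 on the KO arrays, 7.04, 7.12 and 7.18 on the HET arrays and 6.96, 6.92 and 6.81 on the WT arrays. The KO arrays were the highest 3 but differed widely among themselves (SD 0.75, against 0.07 in HET and 0.08 in WT), and every HET array lay above every WT array. The rise over WT was 1.26 ± 0.30 (2.39-fold, limma adjusted p = 0.0162, 95% interval 0.59 to 1.93), and the call did not survive the removal of KO 1 with WT 2 (adjusted p = 0.0636). The rise over HET was 1.05 ± 0.30 (adjusted p = 0.0344), lost without WT 1 (0.055), HET 1 (0.101), HET 2 (0.0922), HET 3 (0.0714) or KO 1 (0.066).

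Sfrp5, a close relative of Sfrp1 and Sfrp2 made by early endoderm, read 6.68, 7.16 and 7.20 in KO, 6.39, 6.47 and 6.58 in HET and 6.54, 6.26 and 6.58 in WT. KO 2 and KO 3 stood high and KO 1 was only slightly above the other groups. The HET and WT arrays straddled the level that separates dim probe sets. The rise over WT was 0.55 ± 0.14 (1.46-fold, limma adjusted p = 0.0238), lost without WT 1 (0.0542), WT 2 (0.0822), KO 2 (0.0791) or KO 3 (0.0725).

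Sfrp1 read 8.27, 9.42 and 9.86 in KO, 8.52, 9.08 and 8.41 in HET and 8.31, 8.25 and 8.66 in WT. KO 2 and KO 3 were the 2 highest arrays, but KO 1 sat among the WT arrays. The difference from WT, 0.78 ± 0.36, did not pass (limma adjusted p = 0.144), but it passed without KO 1, where it was 1.23 (adjusted p = 0.0075). Frzb, also called Sfrp3, had a difference of -0.04 ± 0.26 (adjusted p = 0.914), and Sfrp4 was dim on all 9 arrays.

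**Figure D3:**
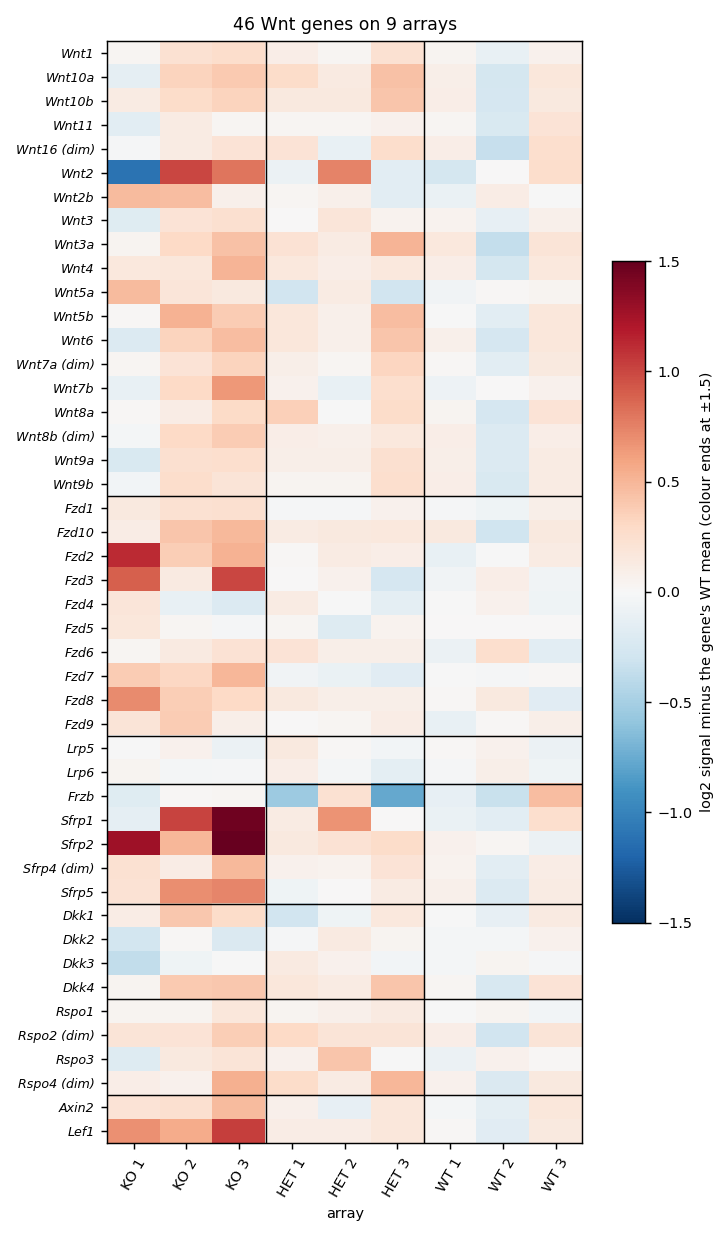
Log2 signal of all 46 Wnt genes (rows, by role from ligands at the top to Axin2 and Lef1 at the bottom) on the 9 arrays (columns), minus the WT mean of the gene; the colour scale ends at ±1.5, and dim marks the 6 genes left out of the test. Red in the KO columns is concentrated in Fzd2, Fzd3, Sfrp1, Sfrp2 and Lef1, and Wnt2 is blue on KO 1 (6.79) and red on KO 2 (8.90) and KO 3 (8.69).

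Of 19 Wnt ligands 16 were tested; none rose or fell in KO against WT by limma, where 1 had an unadjusted p under 0.05. Their median log2 difference was 0.21 and 15 of 16 lay above 0, also with arrays centred on their medians or quantile normalized. Wnt2b, a canonical ligand of mesodermal tissues, had the smallest p, with 8.25, 8.23 and 7.85 in KO, 7.80, 7.85 and 7.61 in HET and 7.67, 7.88 and 7.76 in WT. KO 3 fell within the range of WT. The difference of 0.34 ± 0.12 (95% interval 0.08 to 0.60) did not pass (limma adjusted p = 0.0644), but did without KO 3 (0.0134).

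Wnt5a, the main ligand of the beta-catenin-independent branch, read 8.49, 8.20 and 8.16 in KO, 7.72, 8.14 and 7.73 in HET and 7.96, 8.03 and 8.05 in WT. KO arrays lay above all others, and 2 HET arrays were the lowest. It rose by 0.42 ± 0.12 over HET (limma adjusted p = 0.0414), and the difference from WT, 0.27 ± 0.12, did not pass (adjusted p = 0.148). The call against HET was lost without WT 1 (0.065), WT 2 (0.0547), WT 3 (0.0601), HET 1 (0.14), HET 3 (0.121), KO 1 (0.0954) or KO 2 (0.0643).

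Wnt2, which in the mouse is needed for the vessels of the placenta, is given because it varied most within KO, a choice made after its values were seen. It read 6.79, 8.90 and 8.69 in KO, 7.81, 8.64 and 7.73 in HET and 7.63, 7.90 and 8.15 in WT. Its SD in KO was 1.16, against a median of 0.20 over the 40 Wnt genes and 0.12 over all genes tested. The array order resembled that of Sfrp1, with KO 1 low and HET 2 the highest HET array in both. Such an order was not particular to Wnt genes. The trophoblast markers Ascl2 (6.48, 7.84 and 8.91 in KO) and Plac1 (9.25, 10.19 and 11.06) shared it, with HET 2 at 7.22 and 10.04. Both were singled out after their values were seen, and other markers of that list, such as Prl7a1 and Tpbpa, did not share it.

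The other 14 ligands tested had differences of KO from WT between -0.00 (Wnt11) and 0.31 (Wnt5b), with adjusted p from 0.138 to 0.99. Many of them read close to the dim level, and their order over the arrays was shared: 13 of 19 ligands were lowest on WT 2 and 8 were highest on KO 3. The median over the 19 ligands was 6.88, 7.19 and 7.29 in KO, 6.99, 6.96 and 7.24 in HET and 7.03, 6.73 and 7.05 in WT. The median over dim genes outside the set was also lowest on WT 2 (5.15), next lowest on KO 1 (5.19) and highest on HET 3 (5.40), with KO 3 (5.38) and KO 2 (5.36) next. The part of this array level in the ligand differences was not tested.

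Against HET the ligands gave other values than against WT. The median log2 difference of KO from HET was 0.02 over the 16 ligands, with 10 above 0 (8 with arrays centred on their medians), while HET lay above WT for 14 of 16, with a median of 0.14. The HET arrays thus read near the KO arrays for most ligands, although no ligand passed in HET against WT. Where ligand genes are neighbours in the RefSeq gene table (Wnt6 with Wnt10a, Wnt3a with Wnt9a, Wnt3 with Wnt9b, and Wnt1 with Wnt10b), no partner passed. Wnt4 had a second probe set, whose difference was 0.18 ± 0.14 (limma adjusted p = 0.466 over all probe sets), beside 0.28 ± 0.13 for the one used (adjusted p = 0.138).

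**Figure D4:**
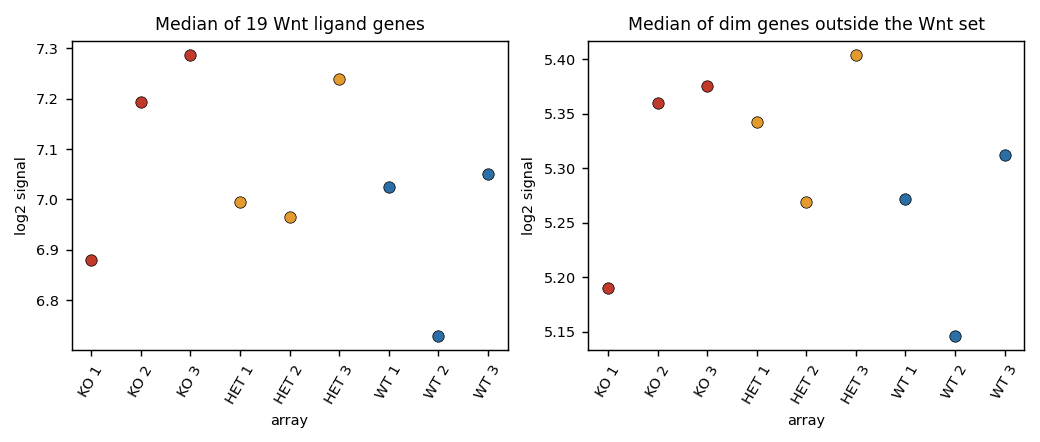
Median log2 signal on each array (x axis) over the 19 Wnt ligand genes (left) and over the dim genes outside the set (right); each point is 1 array. WT 2 is lowest in both panels, at 6.73 and 5.15, and KO 1 is the lowest KO array in both, at 6.88 and 5.19.

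None of the 4 Dickkopf genes passed. Dkk1, an inhibitor that holds Lrp5 and Lrp6 away from Wnt, read 7.43, 7.72 and 7.60 in KO, 7.03, 7.26 and 7.47 in HET and 7.31, 7.19 and 7.46 in WT. KO 2 and KO 3 were the highest arrays and KO 1 lay within the range of both other groups, for a difference from WT of 0.26 ± 0.12 (limma adjusted p = 0.15). Dkk2 and Dkk3 stood at -0.16 ± 0.08 and -0.15 ± 0.09, with adjusted p of 0.198 and 0.285. Without KO 2, Dkk2 was called lower, and it was then the 1 Wnt gene called lower, against WT and against HET alike.

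Of the R-spondins, Rspo2 and Rspo4 were dim, and Rspo1 read 7.64, 7.64 and 7.76 in KO, 7.64, 7.67 and 7.72 in HET and 7.59, 7.64 and 7.56 in WT. Its values lay close together in all genotypes, with a difference of KO from WT of 0.08 ± 0.06 (limma adjusted p = 0.322, 95% interval -0.05 to 0.22). Rspo3, an R-spondin that acts in vessel formation in the mouse, had a difference of 0.05 ± 0.13 (adjusted p = 0.804).

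HET against WT asked whether the loss of 1 Rnh1 copy was enough to move these genes. None of 40 passed by limma, 0 had an unadjusted p under 0.05, and none passed under any alternative run. Among all 13207 genes 0 passed as well (0.0%), with 327 at an unadjusted p under 0.05. Rnh1 itself did not pass, at -0.62 ± 0.13 (limma adjusted p = 0.939), although its HET arrays all lay below its WT arrays. The lack of calls therefore does not show that the loss of 1 copy leaves these genes unchanged. Without overlap between HET and WT arrays, Rspo1 and Sfrp2 lay higher and Fzd7 lower, where 4.25% and 5.98% of all genes did so. The smallest p was that of Wnt10b (0.24 ± 0.12, adjusted p = 0.939). For Lef1 the difference was 0.13 ± 0.12 (95% interval -0.15 to 0.41).

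KO against HET shares the KO arrays with KO against WT. Of 40 Wnt genes 8 were higher and 0 lower by limma (1 lower at an unadjusted p under 0.05), where 21.8% of all genes were called, 8.17% higher and 13.6% lower. The arrays did not overlap for 10 higher and 0 lower, against 15.7% and 21.4% of all genes. The count of 8 was 2 without HET 1, 3 without HET 2, 4 without HET 3, 4 without WT 1 and 5 without KO 2. The 8 were Lef1, Fzd1, Fzd2, Fzd3, Fzd7, Sfrp2, Sfrp5 and Wnt5a. Side by side, the differences from HET and from WT were 0.59 and 0.67 for Fzd2, 0.74 and 0.68 for Fzd3, 0.20 and 0.21 for Fzd1, 0.53 and 0.55 for Sfrp5, 0.35 and 0.46 for Fzd8, 1.05 and 1.26 for Sfrp2, and 0.42 and 0.27 for Wnt5a. With the Eif2s3y level of each array as a covariate, 6 rose against WT and 3 against HET; the 3 were Fzd7, Fzd8 and Lef1.

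A further 71 tested genes of the Wnt pathway, from lists of transport and surface proteins, intracellular components, nuclear cofactors, planar polarity genes and targets, showed 16 higher and 2 lower in KO against WT by limma (22.5% higher), with a median of 0.16, where 8.27% of all genes were higher and 15.2% lower. By list, 5 of 12 nuclear cofactors, 3 of 20 surface and secretion genes, 3 of 20 intracellular components, 2 of 10 polarity genes and 3 of 13 targets rose, and the 2 that fell were surface or secreted proteins, Gpc4 and Cthrc1. The 2 that fell were 7 without KO 1 and 1 without WT 2, KO 2 or KO 3. Against HET, 17 rose (11 without HET 1, 10 without HET 2 and 11 without HET 3) and 1 fell (4 without KO 1), where 8.17% of all genes rose and 13.6% fell; in HET against WT 0 passed by limma, and 0 had an unadjusted p under 0.05.

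Among the surface proteins, Tpbg, a membrane inhibitor of Wnt signalling, read 7.88, 7.61 and 7.86 in KO against 7.06, 7.08 and 6.93 in WT, and rose by 0.76 ± 0.08 (limma adjusted p = 0.00132). The Wnt5a receptor Ror2 rose by 0.42 ± 0.09 (adjusted p = 0.0102) and the polarity receptor Ptk7 by 0.40 ± 0.07 (0.00466). The heparan sulphate proteoglycan Gpc4 fell by 0.43, with 8.30, 8.31 and 8.23 in KO against 8.69, 8.70 and 8.72 in WT. All 3 KO arrays lay outside the WT range in each of these genes.

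Inside the cell, the kinase Csnk1e read 10.63, 10.63 and 10.90 in KO against 10.02, 10.04 and 10.20 in WT and rose by 0.63 ± 0.10 (limma adjusted p = 0.00331), while Dvl3, which relays the signal from Frizzled, rose by 0.31 ± 0.07 (0.0102). The polarity gene Vangl2 rose by 0.50 ± 0.10 (0.0109), a call lost without WT 2 and KO 1 (0.0506). The nuclear cofactors Bcl9l (0.57 ± 0.09, adjusted p = 0.00389), Pygo1 (0.29 ± 0.06, 0.011) and the corepressor Tle3 (0.53 ± 0.08, 0.00326) rose. Beta-catenin itself, Ctnnb1, named after its value was seen, stood at -0.07 ± 0.06 (adjusted p = 0.383).

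Of the target list, Sall4, a stem cell factor, read 11.24, 11.21 and 11.22 in KO against 10.82, 10.75 and 10.90 in WT and rose by 0.40 ± 0.05 (limma adjusted p = 0.00223). Myc, which drives growth, read 11.14, 10.94 and 11.09 in KO against 10.69, 10.65 and 10.60 in WT and rose by 0.41 ± 0.08 (0.01). Both genes answer to many signals besides Wnt. All 13 targets tested had a difference above 0, and 10 of them did not pass.

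**Figure D5:**
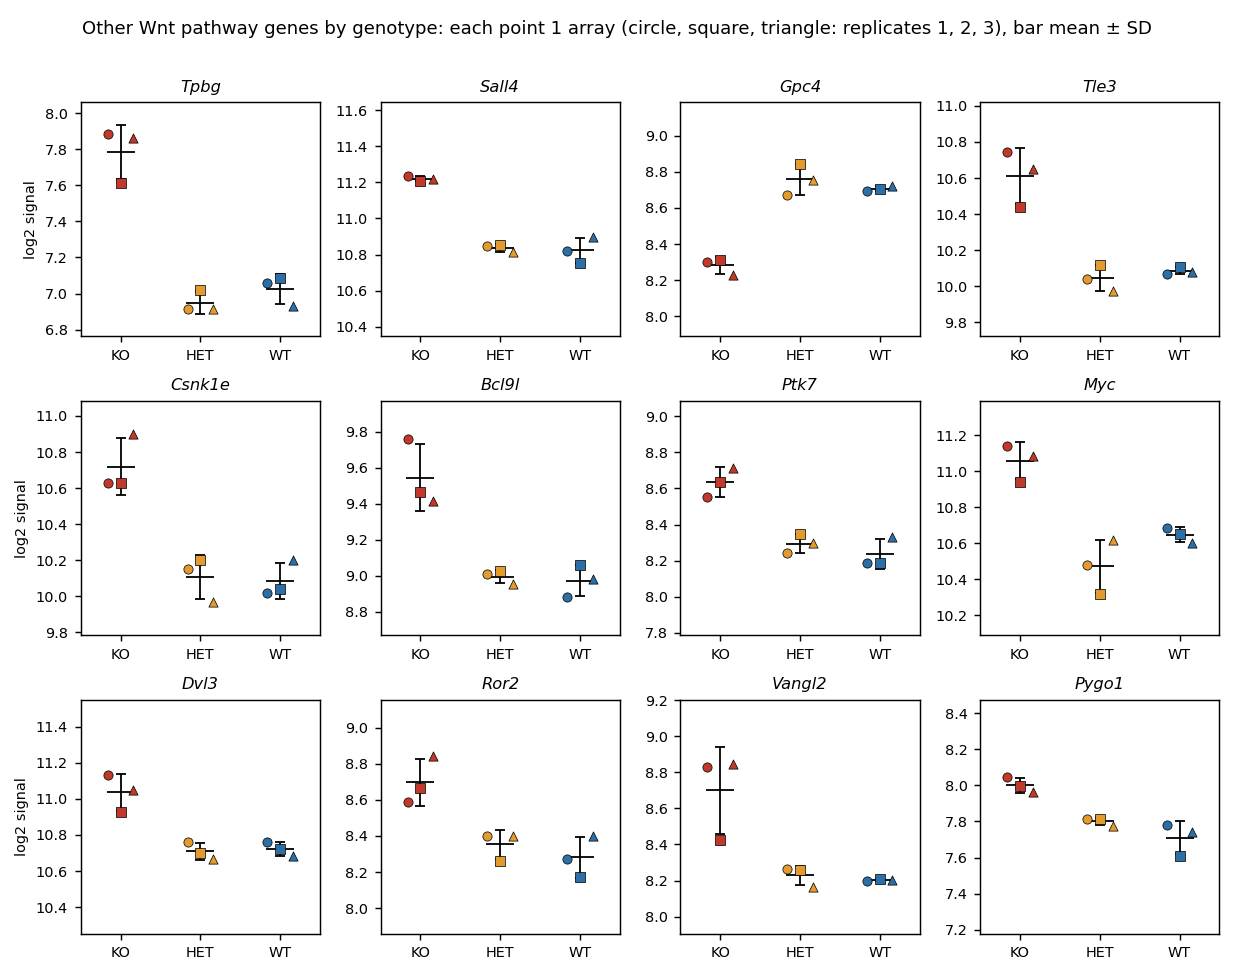
Log2 signal by genotype of the 12 other Wnt pathway genes with the smallest adjusted p in KO against WT; each point is 1 array, the horizontal bar the mean and the whiskers ± SD of 3 arrays. Gpc4 is the 1 panel in which KO lies below WT, at 8.23 to 8.31 against 8.69 to 8.72.

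Marker genes of other cell types are given for KO against WT, where 8.27% of all genes tested rose and 15.2% fell. Of 6 tested markers of the embryo proper 2 rose, the cardiac gene Myl7 (0.75 ± 0.17, limma adjusted p = 0.016) and the hindbrain gene Hoxb1 (0.74 ± 0.14, 0.00771). Myl7 read 6.31 to 6.50 in WT and 6.32 to 6.40 in HET, near or below the dim level of those arrays. It passed the filter for testing only through its KO arrays, so its call and the count of 2 are not separate from that filter. The summed log2 level of the 13 measured was 86.5 to 92.8 in KO, 84.4 to 86.7 in HET and 81.7 to 85.5 in WT. These sums include the markers left out of the test as dim. The lowest sum was on WT 2, where the median of dim genes outside the Wnt set was also lowest (5.15). The mean of the 13 measured was 6.65 on KO 1, 6.76 on KO 2 and 7.13 on KO 3. KO 3 was also the highest of the 9 arrays for 21 of the 46 Wnt genes, and a link between the 2 was not tested. Single markers of this list differed in their order over the KO arrays. Myl7 read 6.67, 7.47 and 7.34 on the KO arrays, lowest on KO 1, and Hoxb1 read 7.88, 7.72 and 8.02, lowest on KO 2. Singled out after their values were seen, Sox2 of neural tissue read 5.65, 5.62 and 7.46 on the KO arrays and Meox1 of somites 6.96, 5.85 and 7.04, and neither read above 5.86 on any HET or WT array. Pax6, Otx2 and Pax3 were dim on all 9 arrays.

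The lists that follow are also set beside the 8.27% of all genes that rose and the 15.2% that fell. Of 10 extraembryonic mesoderm markers 3 rose (Hand1, Foxf1 and Tbx20) and Postn fell. Their summed levels were 108.6 to 109.2 in KO, 106.6 to 108.0 in HET and 106.9 to 108.1 in WT. Of 15 visceral endoderm markers 4 fell and 0 rose, with sums of 171.0 to 174.0 in KO, 175.6 to 177.9 in HET and 176.4 to 177.4 in WT. Of 4 tested trophoblast markers none passed, and the sum over the 9 measured was 54.9 to 61.1 in KO, 50.02 to 55.1 in HET and 54.1 to 56.9 in WT, with 4 of them dim throughout. The part of these cell types in the Wnt gene differences was not tested. In whole yolk sacs, fewer cells of a type and less RNA per cell cannot be told apart.

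The start regions of the genes that rose were searched for CTTTGAT, a form of the core recognised by Tcf and Lef factors, on both strands (as CTTTGAT or ATCAAAG). The search covered the 250 bases before the start in the RefSeq promoter table (GRCm38.p6). Other forms of the core were not searched. Of the 46 Wnt genes 30 matched the table by gene number, with 36 start regions. The sequences of Lef1 (the first of its 4 starts), Fzd7 and Sfrp2, which rose, of Axin2, which did not pass, and of Wnt11, as an example that holds the searched form, are shown 5′ to 3′ in lower case with any match in capitals.
Lef1 (chr3:131110047-131110296, plus strand): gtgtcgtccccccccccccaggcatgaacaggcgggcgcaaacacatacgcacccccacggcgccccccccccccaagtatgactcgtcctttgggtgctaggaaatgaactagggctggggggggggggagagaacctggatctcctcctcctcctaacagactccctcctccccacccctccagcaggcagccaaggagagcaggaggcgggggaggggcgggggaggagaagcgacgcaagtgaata
Fzd7 (chr1:59481897-59482146, plus strand): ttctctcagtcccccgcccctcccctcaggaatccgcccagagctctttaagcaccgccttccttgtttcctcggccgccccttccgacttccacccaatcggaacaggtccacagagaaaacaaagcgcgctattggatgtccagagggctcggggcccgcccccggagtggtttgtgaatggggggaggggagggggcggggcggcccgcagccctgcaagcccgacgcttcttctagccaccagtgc
Sfrp2 (chr3:83766071-83766320, plus strand): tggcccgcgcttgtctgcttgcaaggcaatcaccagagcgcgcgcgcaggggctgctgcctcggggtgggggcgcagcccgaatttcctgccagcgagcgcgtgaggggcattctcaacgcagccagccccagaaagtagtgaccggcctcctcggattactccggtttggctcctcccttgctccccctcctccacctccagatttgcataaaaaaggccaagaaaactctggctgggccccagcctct
Axin2 (chr11:108920099-108920348, plus strand): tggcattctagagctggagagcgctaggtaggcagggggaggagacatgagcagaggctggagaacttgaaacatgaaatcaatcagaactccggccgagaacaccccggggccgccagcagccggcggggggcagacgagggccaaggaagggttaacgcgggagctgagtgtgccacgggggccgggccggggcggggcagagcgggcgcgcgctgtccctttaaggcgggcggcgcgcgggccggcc
Wnt11 (chr7:98834862-98835111, plus strand): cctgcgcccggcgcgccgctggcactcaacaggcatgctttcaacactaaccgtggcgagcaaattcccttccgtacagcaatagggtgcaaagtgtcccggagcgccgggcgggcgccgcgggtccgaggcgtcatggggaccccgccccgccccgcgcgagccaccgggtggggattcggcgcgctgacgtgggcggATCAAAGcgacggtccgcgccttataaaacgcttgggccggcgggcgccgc

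The searched form was found in 2 of 36 start regions of Wnt genes, 1 each of Wnt11 and Wnt5b, and in 3.21% of all 32851 start regions in the table. Of the 9 Wnt genes called in either comparison with KO, 5 had a start region in the table (Lef1, Fzd1, Fzd7, Sfrp2 and Sfrp5). Of these 5, 0 held the searched form in this window, and other forms of the core were not counted. The start regions of the Wnt genes had a median G and C content of 66.8%, against 52.4% over all start regions.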

How the data were processed

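Gene expression was measured on 1 array per yolk sac sample, from 100 ng of RNA and 5.5 µg of labelled cDNA, per the labels' protocols. The submitters' processing notes name RMA and Affymetrix Expression Console 1.2.1.20 for the values the authors deposited, which are log2 signals of whole probe sets. RMA corrects background, normalizes between arrays and summarises probes, which can narrow differences near background. The sources used here do not give the build behind the array's annotation. Probe sets naming 1 gene symbol (21780 of 28350) were used. Precision is limited by the number of arrays.

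Genes above the 40th percentile of their array on at least 3 of 9 arrays (13207) were fitted with limma 3.58.1 in R 4.3.3, with the 9 arrays in 1 model of genotype and without covariates. Benjamini-Hochberg adjustment covered every gene tested. Differences are in log2 units of genotype means. The fit was tested on simulated data. Probe sets naming several genes or none were left out.

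The members, the pathway and marker lists, the tests and the naming rule were chosen with earlier results of these data known. The rule names every Wnt gene past the test, Axin2 and Lef1, the gene of smallest unadjusted p in each role among those that did not pass, and up to 12 other pathway genes of smallest adjusted p. The marker lists were visceral and parietal endoderm, extraembryonic mesoderm, endothelium, erythroid cells, macrophages, trophoblast, decidua, embryo proper and cell division. The alternatives changed the filter, probe set choice, scaling, prior, array weights, arrays in the fit, replicate block, a sex covariate and thresholds. Replicate numbers were not used to pair the arrays in the main fit.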

Additional observations from a re-analysis of the deposited data

How the results depend on the processing

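Against WT, the 8 Wnt genes higher became 5 with arrays centred on their medians, 20 with array weights, 3 with only KO and WT arrays in the fit and 4 at 1.5-fold or more; with 1 array left out the count ran from 3 to 12, and genes called lower from 0 to 1. Against HET, the 8 became 3 with only KO and HET arrays, 3 with Eif2s3y as a covariate and 4 at 1.5-fold or more, and 2 to 7 with 1 array left out, with 0 to 1 lower. Of other pathway genes against WT, the 16 higher became 26 with array weights and 2 at 1.5-fold or more, and 12 to 21 with 1 array left out. The 2 lower became 1 without a filter, 7 with array weights, 1 with only the KO and WT arrays, 1 with Eif2s3y, 5 without WT 2 and KO 1, 6 at an adjusted p under 0.1 and 0 at 1.5-fold, and 1 to 7 with 1 array left out. Against HET, the 17 higher became 11 with arrays centred on their medians and 2 at 1.5-fold, and 10 to 16 with 1 array left out; the 1 lower became 2 after quantile normalization, 6 with array weights, 4 without WT 2 and KO 1, 3 at an adjusted p under 0.1 and 0 at 1.5-fold, and 1 to 4 with 1 array left out. A fold threshold lowers counts, and a looser adjusted p raises them, by construction; other causes were not tested. Without WT 2 and KO 1, 8 Wnt genes were higher against WT, 5 of them among the 8 named. For named genes, 1529 of 1671 values under alternatives kept their side of the threshold, 115 lost a call and 27 gained one. None that was called changed direction. Some that were not called changed sign, as for Lrp5 in KO against WT (-0.08 to 0.05). The counts in HET against WT stayed at 0. With the replicate number as a replicate block, 9 Wnt genes were higher against WT and 10 against HET, with 0 lower and 0 in HET against WT, and 17 other pathway genes were higher and 2 lower against WT, 17 and 1 against HET. Axin2 then passed, at adjusted p = 0.0159 against WT and 0.0276 against HET. Same-numbered arrays of different genotypes had residual correlations from -0.26 to 0.42, and differently numbered ones from -0.59 to 0.41. These overlapping ranges do not settle whether the numbers pair the arrays. The estimation of array weights stopped before its convergence tolerance. Groups of 3 arrays limit the precision of every value.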

Other observations

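Marker lists of other compartments are given beside the 15.2% of all genes that were lower in KO against WT. Of 9 tested primitive erythroid markers 5 fell and 0 rose by limma, with a median log2 difference of -0.43, of 5 macrophage markers 3 fell, and of 10 endothelial markers 2 fell. Of 10 parietal endoderm markers 2 fell (median -0.64), and summed levels were 93.9 to 96.7 in KO, 93.5 to 94.0 in HET and 94.1 to 106.2 in WT. Of 6 tested markers of the maternal decidua 1 fell, with summed levels over the 7 measured of 53.9 to 55.7 in KO, 47.8 to 53.2 in HET and 56.1 to 57.4 in WT. Against HET 1 rose and 1 fell, where 8.17% of all genes rose and 13.6% fell. Prl8a2 of this list, singled out after its values were seen, read 9.76 to 11.34 in KO, 6.50 to 9.75 in HET and 8.90 to 10.72 in WT. The part of maternal tissue in these values was not tested. Of 7 tested cell division genes 1 fell.

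Lgr5, the receptor of R-spondins that is itself a Wnt target, was left out of the test as dim. It read 6.16, 6.59 and 7.35 on the KO arrays, 5.82, 6.12 and 5.98 on the HET arrays and 5.80, 6.07 and 5.90 on the WT arrays. KO 3 was highest, as it was for 21 of the 46 Wnt genes, and KO 1 lay just above HET 2, with both below the dim level of their arrays (6.43 and 6.46). Lgr5 was singled out after its values were seen.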
